A study of Arabidopsis thaliana with 6 samples.

Results

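The type-A response regulators of Arabidopsis thaliana are small proteins with a receiver domain that act in the response to the plant hormone cytokinin. The family was taken as the rows of the deposited expression table named ARR3, ARR4, ARR5, ARR6, ARR7, ARR8, ARR9, ARR15, ARR16 and ARR17, and each of the 10 loci matched exactly 1 of the 33511 rows. Of these 10 genes, 9 passed the filter on low values and were tested for a response to induction of MUTE, a transcription factor of the stomatal lineage. ARR17 did not pass and is described by its values alone.

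Cytokinin binds histidine kinase receptors of the AHK family, which pass phosphate through histidine phosphotransfer proteins (AHPs) to the response regulators in the nucleus. The type-B regulators are DNA-binding transcription factors, and the type-A genes are among the primary targets that they activate. Type-A regulators lack the DNA-binding domain and act mostly as negative regulators of the same pathway. ARR16 and ARR17 are members known from work on the stomatal lineage, the series of epidermal cells from which the guard cells of stomata arise.

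The study sequenced RNA of whole seedlings in 2 groups of 3 libraries. Seedlings in the estradiol group were homozygous Col-0 transgenics with a MUTE cDNA in the vector pER8, aged 4 days, kept in liquid medium with 10 µM estradiol for 8 h. Seedlings in the mock group carried the same construct, had the same age and were kept for 8 h in medium with the solvent DMSO. Each library pooled 40 to 50 seedlings. In pER8 a constitutively expressed synthetic activator switches on the inserted gene when estradiol is present, so that MUTE is made in cells outside its usual place. No group without the construct was analysed here, so the effects of MUTE, of estradiol and of the activator cannot be told apart. In RNA of whole seedlings, fewer cells of a type and less RNA per cell cannot be told apart either.

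The values are FPKM, fragments scaled by transcript length and by library size. Levels of different genes are compared below on that scale, though the annotation behind the lengths is not given in the sources used here. MUTE itself was listed at 2945.96, 2964.08 and 3048.60 FPKM in the estradiol libraries, against 3.31, 1.89 and 1.90 FPKM in the mock libraries, so the labels held for the induced gene. A two-sided exact permutation test of MUTE gave p = 0.1, the smallest that 3 against 3 libraries allow. Depth is not stated in the table, and low values fell on steps that put estradiol 1 and estradiol 3 at about 41.2% and 54.0% of the depth of mock 1 and the other libraries between 82.9% and 98.6%. Markers of shoot and root were both present, with 5 root hair genes summing to 55.63 to 66.76 FPKM in estradiol and 101.3 to 110.7 FPKM in mock libraries. The sum of 5 root endodermis genes was 34.42 to 36.21 FPKM in estradiol and 28.47 to 28.9 FPKM in mock libraries. That of 4 shoot photosynthesis genes was 13100 to 13470 FPKM in estradiol and 14320 to 15490 FPKM in mock libraries, and that of 5 vascular genes was 59.39 to 64.78 FPKM in estradiol and 60.57 to 63.64 FPKM in mock libraries. Of the markers that passed the filter, 4 of 5 root hair genes fell and 1, RHD6, rose, 3 of 5 endodermis genes rose, 1 of 4 photosynthesis genes rose and 1 fell, and 1 of 4 vascular genes fell. Of all 19134 genes tested, 36.2% passed the same threshold, 23.3% higher and 12.9% lower. The sums follow their abundant genes. PRP3 gave most of the root hair sum, with a mean of 42.4 FPKM in estradiol and 80.7 FPKM in mock libraries. Of the photosynthesis genes only RBCS2B had a lower mean with estradiol, at 5430 FPKM against 7320 FPKM in mock libraries. The part of these marker shifts in the results below was not tested.

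The DNA upstream of 4 members is shown because these are the 4 that responded. Each line gives the 250 bases before the annotated gene start, 5′ to 3′ toward the gene, from the RefSeq annotation and genome of assembly TAIR10.1. Capitals mark AGATT or its reverse complement AATCT, the core that type-B regulators bind, and CANNTG, the E-box that basic helix-loop-helix factors such as MUTE's family bind.
ARR6 (chr5:25254319-25254568, minus strand): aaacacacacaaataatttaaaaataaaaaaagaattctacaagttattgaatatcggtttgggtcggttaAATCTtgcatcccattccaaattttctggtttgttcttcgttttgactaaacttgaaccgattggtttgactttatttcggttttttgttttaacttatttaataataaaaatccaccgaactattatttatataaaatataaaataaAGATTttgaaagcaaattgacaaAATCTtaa
ARR7 (chr1:6579315-6579564, minus strand): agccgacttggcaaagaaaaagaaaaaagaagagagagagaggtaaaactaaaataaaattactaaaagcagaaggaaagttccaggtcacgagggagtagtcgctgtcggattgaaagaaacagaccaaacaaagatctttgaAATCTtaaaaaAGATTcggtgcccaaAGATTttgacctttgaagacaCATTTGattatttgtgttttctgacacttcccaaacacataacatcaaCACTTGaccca
ARR8 (chr2:17221590-17221839, plus strand): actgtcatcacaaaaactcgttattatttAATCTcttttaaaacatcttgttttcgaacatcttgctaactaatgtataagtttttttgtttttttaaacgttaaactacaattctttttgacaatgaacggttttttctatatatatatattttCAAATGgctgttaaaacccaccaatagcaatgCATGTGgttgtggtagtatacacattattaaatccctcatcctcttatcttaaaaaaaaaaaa
ARR4 (chr1:3444361-3444610, minus strand): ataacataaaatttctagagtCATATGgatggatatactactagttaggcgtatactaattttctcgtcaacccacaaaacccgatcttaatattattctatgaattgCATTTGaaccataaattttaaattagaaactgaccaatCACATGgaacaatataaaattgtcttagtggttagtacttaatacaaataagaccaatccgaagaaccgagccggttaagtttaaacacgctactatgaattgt

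These windows differed in both motifs. ARR6 held 3 matches to AGATT, at 179, 31 and 8 bases before the start, and no E-box. ARR7 also held 3 matches to AGATT, but packed at 106, 95 and 80 bases, followed by 2 E-boxes at 59 and 11 bases. ARR8 had 1 AGATT match and 2 E-boxes, and ARR4 had 3 E-boxes and no AGATT match. Over all 10 members, 7 had an AGATT match and 8 an E-box in this window. Of 27443 protein-coding genes of the nuclear chromosomes, 63.7% had an AGATT match and 55.3% an E-box in the same window, read here with no test of the family. The absences depended on the window, since in 1000 bases before the start ARR4 held 5 AGATT matches and ARR6 held 2 E-boxes. In that longer window 98.3% of the protein-coding genes had an AGATT match and 96.2% an E-box. Both strands were searched, matches of the 2 motifs did not overlap, and a match is a string of letters, not a measured binding site.

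**Figure D1:**
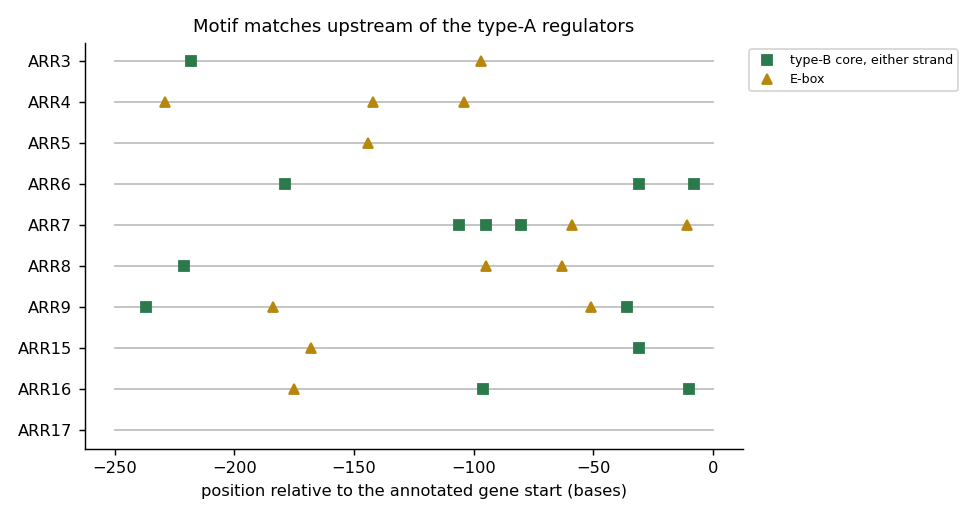
Positions of the type-B core (squares, either strand) and of the E-box (triangles) in the 250 bases before the annotated start of each of the 10 genes; the x axis is the distance in bases from the start at 0. ARR6 and ARR7 each hold 3 squares, spread to within 8 bases of the start in ARR6 and packed between 106 and 80 bases before it in ARR7, and ARR17 holds no match.

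The members lie on chromosomes 1, 2, 3 and 5, and their closest relatives by sequence are not neighbours in the genome. ARR6 (AT5G62920) is at 25252007 to 25254318 on the minus strand of chromosome 5, with 5 exons. ARR4 (AT1G10470) is at 3441988 to 3444360 and ARR7 (AT1G19050) at 6577833 to 6579314, both on the minus strand of chromosome 1 and with 5 exons each. ARR8 (AT2G41310) is at 17221840 to 17224880 on the plus strand of chromosome 2, with 6 exons. Coding sequences ran from 465 bases in ARR17 to 972 bases in ARR3. The most alike pairs in coding sequence were ARR16 and ARR17 (84.1% identity over aligned bases), ARR3 and ARR4 (83.2%), ARR5 and ARR6 (81.4%), ARR8 and ARR9 (81.3%) and ARR7 and ARR15 (79.0%). No 50-base stretch of an exon recurred elsewhere in the genome for 9 members, whereas 3.78% of the stretches of ARR8 did. Thus no such stretch was shared between the exons of 2 members.

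Seedlings with induced MUTE had less RNA of 3 members and more of 1. ARR8, ARR7 and ARR4 fell by 26.0%, 23.3% and 16.7% relative to their mock means, and ARR6 rose by 29.9%. Thus 4 of the 9 tested members passed a limma adjusted p of 0.05, where 36.2% of the 19134 genes tested did. By direction, 1 of 9 was higher, against 23.3% of all tested genes, and 3 of 9 were lower, against 12.9%. The median log2 fold change of the 9 was -0.09, against 0.0483 over all tested genes. None of the 9 tested members reached a 2-fold change, and only 155 of the 19134 tested genes passed the threshold with at least that change. The estradiol and mock values did not overlap for 5 members, the 4 above and ARR16, where 51.0% of all tested genes showed no overlap. Of these 5, 2 were higher (33.7% of all tested genes) and 3 lower (17.4%). All fold changes below are of FPKM + 1, estradiol over mock, which understates the change of low genes, and their errors are standard errors (SE) of the fit.

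ARR8 is a type-A member whose overexpression is known to dampen cytokinin responses. It had 21.41, 20.70 and 18.79 FPKM in the estradiol libraries, against 27.53, 27.75 and 27.03 FPKM in the mock libraries. Every estradiol value lay below every mock value. The mean was 20.3 ± 1.36 FPKM with estradiol and 27.4 ± 0.369 FPKM in mock (SD, n = 3 each). Its log2 fold change of -0.42 (SE 0.049) had a limma adjusted p of 0.000537, and 7.31% of all tested genes changed by more in either direction. In the annotation used here an RNA gene on the opposite strand, AT2G09250, covers 299 bases of the 2370 exon bases of ARR8, and whether the authors counted by strand is not given in the sources used here.

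ARR7 is a rapidly cytokinin-induced member that is known as a target of the stem cell factor WUSCHEL in the shoot apex. It had 14.18, 13.86 and 12.12 FPKM in the estradiol libraries, against 17.68, 16.90 and 17.78 FPKM in the mock libraries. Its groups were also separate, and estradiol 3 was the lowest library. The log2 fold change was -0.36 (SE 0.0584, limma adjusted p 0.0024). Leaving out estradiol 3 gave -0.30 and leaving out estradiol 1 gave -0.40, both past the threshold.

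ARR4, known for its interaction with the photoreceptor phytochrome B, was the most abundant member. It had 48.74, 51.87 and 50.38 FPKM in the estradiol libraries, against 58.34, 60.01 and 62.89 FPKM in the mock libraries. The groups did not overlap, and the fold change was the smallest of the 3 falls, at -0.26 (SE 0.0398, limma adjusted p 0.00192).

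ARR6, the close relative of the cytokinin reporter gene ARR5, was the one member that rose. It had 11.68, 11.71 and 11.50 FPKM in the estradiol libraries, against 9.01, 8.60 and 9.24 FPKM in the mock libraries. The 3 estradiol values were close together (SD 0.114 FPKM) and all above mock. The log2 fold change was 0.34 (SE 0.0401, limma adjusted p 0.000526). A protein-coding gene on the opposite strand, AT5G62910, covers 348 of the 1459 exon bases of ARR6. It had 7.79, 7.85 and 8.88 FPKM in the estradiol libraries, against 6.82, 7.47 and 7.55 FPKM in the mock libraries, with a log2 fold change of 0.15 (SE 0.0606, limma adjusted p 0.0923). Its part in the value of ARR6 was not tested.

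**Figure D2:**
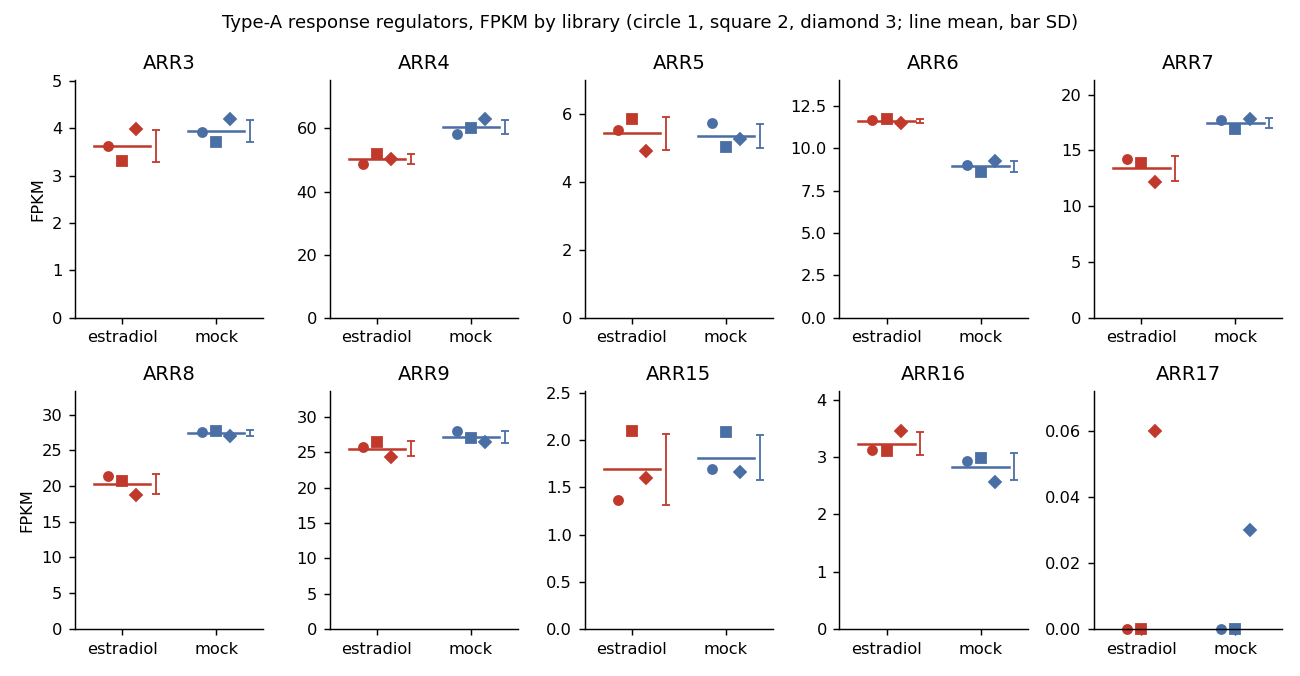
FPKM (y axis, from 0, a scale per panel) of the 10 genes in the 3 estradiol libraries (red, left) and the 3 mock libraries (blue, right); symbols are libraries 1 to 3, lines group means and bars SD, left out for ARR17. ARR8, ARR7 and ARR4 lie lower in all 3 estradiol libraries and ARR6 higher, while the groups of ARR3, ARR5, ARR9 and ARR15 overlap.

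ARR16, known like ARR17 from work on the stomatal lineage, was low and did not pass the test. It had 3.13, 3.11 and 3.46 FPKM in the estradiol libraries, against 2.94, 2.99 and 2.56 FPKM in the mock libraries. The groups did not overlap, with 3.11 FPKM as the lowest estradiol and 2.99 FPKM as the highest mock value. Its log2 fold change of 0.15 (SE 0.0647) had a limma adjusted p of 0.114 (0.0547 before adjustment). Among the 14 alternatives that kept ARR16, 0 brought it past the threshold, the adjusted p lying between 0.0936 and 0.47. The 3 tested genes whose profile over the 6 libraries was closest to that of ARR16 were ATRAB8, AT3G24030 and BCCP, with a root mean square difference of 0.0184, 0.0189 and 0.019 (log2 values centred on the mock mean). This likeness is common, since 6421 of 19133 genes lay within 0.1 of ARR16 by that measure.

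ARR17, the closest relative of ARR16, was listed at 0 in 4 of 6 libraries. Its other values were 0.06 FPKM in estradiol 3 and 0.03 FPKM in mock 3. No fold change is given for such values, and a response of ARR17 could not be judged from them.

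The other 4 members showed overlapping groups. ARR9, similar to ARR8 in sequence, had 25.71, 26.47 and 24.34 FPKM in the estradiol libraries, against 28.04, 27.08 and 26.43 FPKM in the mock libraries, and its fold change of -0.09 (SE 0.0418, limma adjusted p 0.131) passed the threshold under 1 of 15 alternatives, median-of-ratios scaling (-0.14, adjusted p 0.0196). An RNA gene on the opposite strand, AT3G08825, covers 190 of its 1894 exon bases. ARR5, whose promoter drives a widely used cytokinin reporter, had 5.55, 5.85 and 4.91 FPKM in the estradiol libraries, against 5.74, 5.04 and 5.27 FPKM in the mock libraries. Its fold change of 0.02 (SE 0.0682, limma adjusted p 0.855) turned negative under both scalings (-0.03 in each) and without estradiol 2 (-0.03) or mock 2 (-0.02). ARR3, the relative of ARR4, had 3.62, 3.30 and 3.98 FPKM in the estradiol libraries, against 3.93, 3.72 and 4.19 FPKM in the mock libraries (-0.10, SE 0.0674, limma adjusted p 0.297). ARR15, like ARR7 known as a cytokinin-induced regulator in meristems, had 1.37, 2.1 and 1.6 FPKM in the estradiol libraries, against 1.69, 2.09 and 1.66 FPKM in the mock libraries. Its SE of 0.107 was the widest of the 9, around a fold change of -0.07 (limma adjusted p 0.644) that changed sign without estradiol 1 (0.02) and without estradiol 1 and 3 (0.14).

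**Figure D3:**
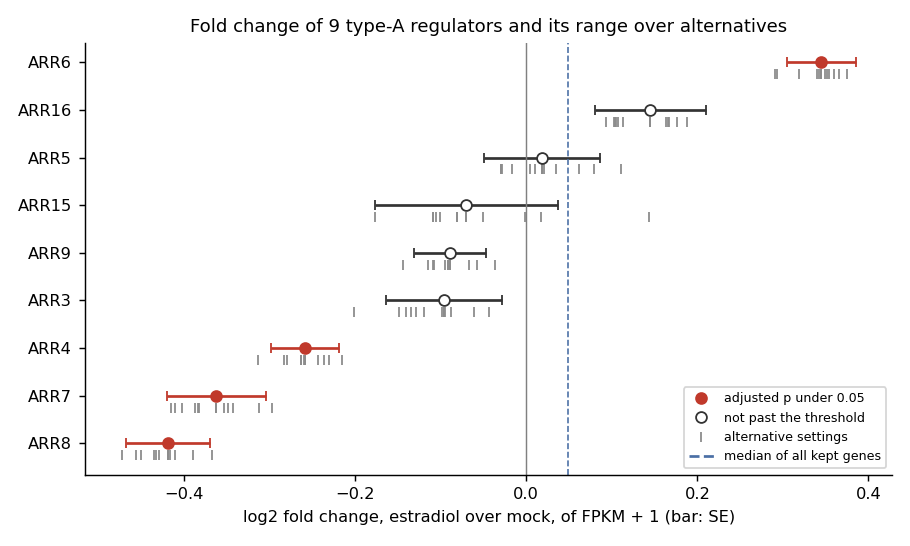
Log2 fold change of FPKM + 1, estradiol over mock, for the 9 tested genes (x axis), with SE bars; filled points passed an adjusted p of 0.05, ticks give the alternative settings and the dashed line the median of all tested genes, 0.0483. The 4 filled points run from -0.42 for ARR8 to 0.34 for ARR6, and none of their ticks crosses 0.

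The members were also compared in the 5 pairs of closest coding sequence. The change of ARR8 was 0.33 (log2) below that of ARR9 (difference -0.33, SE 0.0375), and that of ARR5 was 0.33 below that of ARR6 (-0.33, SE 0.069). In both pairs the within-library difference did not overlap between the groups, and two-sided exact permutation tests gave p = 0.1, the smallest possible (0.167 after adjustment over 5 pairs). The difference was -0.29 (SE 0.158) for ARR7 and ARR15 and 0.16 (SE 0.082) for ARR3 and ARR4. The exact permutation p was 0.2 for both, also 0.2 after adjustment. For ARR16 and ARR17 the difference of 0.13 (SE 0.067, exact permutation p = 0.1, adjusted 0.167) holds little beside the values of ARR16, since ARR17 was near 0. None of these tests could pass the threshold in this design.

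Within the family, levels spanned a wide range that held in both groups. In estradiol libraries the order of mean FPKM was ARR4 at 50.3, ARR9 at 25.5, ARR8 at 20.3, ARR7 at 13.4, ARR6 at 11.6, ARR5 at 5.44, ARR3 at 3.63, ARR16 at 3.23 and ARR15 at 1.69. In mock libraries the means were 60.4 for ARR4, 27.4 for ARR8, 27.2 for ARR9, 17.5 for ARR7, 8.95 for ARR6, 5.35 for ARR5, 3.95 for ARR3, 2.83 for ARR16 and 1.81 for ARR15. ARR17 was last in every library. Neighbours in this order were separate in every case but ARR3 and ARR16 in estradiol libraries and ARR8 and ARR9 in mock libraries, whose values overlapped. ARR9 was above ARR8 in 3 of 3 estradiol libraries, whereas ARR8 was above ARR9 in 2 of 3 mock libraries. The ratio of ARR7 to ARR6 was 1.15 with estradiol and 1.95 in mock.

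The summed FPKM of the 10 genes was 135.4, 139.0 and 131.1 in the estradiol libraries, against 154.9, 154.2 and 157.1 in the mock libraries, a ratio of means of 0.87. ARR4 made up 36.0% to 38.4% of that sum with estradiol and 37.7% to 40.0% in mock. ARR6 made up 8.43% to 8.77% with estradiol and 5.58% to 5.88% in mock. This sum follows the abundant members, ARR4, ARR8, ARR9 and ARR7, which together held 80.5% to 81.3% of it with estradiol and 85.0% to 85.4% in mock.

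Around the family, 64 other genes of cytokinin signalling, metabolism, transport and response were listed, of which 59 could be paired with a row and 37 passed the filter. Of these, 12 rose and 7 fell, so that 51.4% passed the threshold where 36.2% of all tested genes did, and their median log2 fold change was 0.04 against 0.0483. The split depended on the scaling, with 10 higher and 10 lower after quantile normalization and 9 higher and 10 lower by median of ratios. The receptors and phosphotransfer proteins held no call. AHK2, AHK3 and AHK4 had limma adjusted p of 0.224, 0.17 and 0.0638, and AHK4, at 4.00 ± 0.26 FPKM with estradiol and 4.52 ± 0.0569 FPKM in mock (SD, n = 3), passed under quantile normalization (-0.19, adjusted p 0.0202), median-of-ratios scaling (-0.19, adjusted p 0.0205) and without estradiol 2 (-0.18, adjusted p 0.0382). AHK2 passed under both scalings (-0.13 in each, adjusted p 0.0378 and 0.0447). Of 4 tested AHPs, the most abundant, AHP1, was at 39.0 ± 1.90 FPKM with estradiol and 40.0 ± 3.69 FPKM in mock (limma adjusted p 0.719). AHP3 and AHP5 had fold changes of 0.04 and 0.14 (limma adjusted p 0.42 and 0.174), and AHP5 passed without estradiol 3 (0.23, adjusted p 0.0229) and without estradiol 1 and 3 (0.29, adjusted p 0.0336).

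The type-B regulators, which activate type-A genes, were mostly higher. Of 11 listed genes 6 were tested, 5 rose and 0 fell, where 23.3% of all tested genes rose and 12.9% fell. The median log2 fold change of the 6 was 0.23, against 0.0483 over all tested genes, and 4 of the 6 passed under each of the 2 scalings. Without estradiol 1 and 3, the shallowest libraries, ARR14 alone of the 6 passed. ARR14 had 7.65, 8.38 and 8.40 FPKM in the estradiol libraries, against 5.56, 4.69 and 5.89 FPKM in the mock libraries, a log2 fold change of 0.52 (SE 0.0751, limma adjusted p 0.00139). ARR2 rose by 0.24, ARR10 by 0.24 and ARR1 by 0.21 (limma adjusted p 0.00849, 0.00677 and 0.0112). ARR12, at 15.4 ± 0.713 FPKM with estradiol and 13.7 ± 0.494 FPKM in mock (SD, n = 3), passed at 0.16 (limma adjusted p 0.0286). It lost the threshold in 5 of 6 fits without 1 library, those without estradiol 1 or 2 and without mock 1, 2 or 3 (adjusted p 0.0517 to 0.0871), and under both scalings (0.0657 and 0.0785). ARR11 did not pass (0.06, limma adjusted p 0.552). The 5 untested type-B genes, ARR13, ARR18, ARR19, ARR20 and ARR21, reached at most 0.07 FPKM, and the type-C genes ARR22 and ARR24 were listed at 0 in every library.

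Other genes that cytokinin induces moved both ways, as the type-A genes did. Of 9 tested genes in that list 4 rose and 3 fell, beside 23.3% and 12.9% of all tested genes. This list shares CRF2, CRF5, CRF6, CKX4, CYP735A2 and AHK4 with other lists described here, whereas CRF3 and CRF4 are not in it. Among the cytokinin response factors, transcription factors of the AP2/ERF class, CRF6 rose by 0.48 (6.32, 7.42 and 6.24 FPKM with estradiol against 4.52, 4.25 and 4.69 FPKM in mock, limma adjusted p 0.00132) and CRF5 by 0.31 (limma adjusted p 0.00252), whereas CRF2, CRF3 and CRF4 did not pass (0.01, 0.04 and -0.08, limma adjusted p 0.908, 0.69 and 0.421). CYCD3;1, a D-type cyclin, rose by 0.39 (SE 0.0441, limma adjusted p 0.000452). GATA22, listed as CGA1 and known for its role in chloroplast development, had 3.57, 4.49 and 3.60 FPKM in the estradiol libraries, against 8.77, 8.56 and 8.82 FPKM in the mock libraries (log2 fold change -0.997, SE 0.0731, limma adjusted p 5.96e-05). SHY2, listed as IAA3, a repressor of auxin responses, fell by 0.78 (7.99, 7.37 and 6.68 FPKM with estradiol against 13.40, 13.04 and 13.39 FPKM in mock, limma adjusted p 6.83e-05). ASL9 was under the filter, at 0.41, 0.31 and 0.59 FPKM with estradiol and 0.74, 0.91 and 0.74 FPKM in mock.

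Of 8 tested genes of cytokinin synthesis, 4 fell and 0 rose, where 12.9% of all tested genes fell and 23.3% rose. The count of calls was 2 without estradiol 3 or without mock 2, and 5 under each of the 2 scalings. With median-of-ratios scaling, lower calls over all genes were 3422 of 19134, against 2474 as deposited. LOG1, LOG7 and LOG8 encode enzymes that release active cytokinin from its nucleotide. LOG1 had 2.42, 2.79 and 2.41 FPKM in the estradiol libraries, against 5.35, 4.85 and 4.65 FPKM in the mock libraries (-0.75, SE 0.0666, limma adjusted p 0.000148). LOG8 fell by 0.22 (log2) (limma adjusted p 0.0118). LOG7 (-0.27, limma adjusted p 0.0214) and CYP735A2, the hydroxylase that makes trans-zeatin forms (-0.25, limma adjusted p 0.028), each lost the threshold in 4 of 6 fits without 1 library. These were the fits without estradiol 1 or 3 and mock 1 or 2 for LOG7 (adjusted p 0.0558 to 0.0669), and without estradiol 1 or 3 and mock 2 or 3 for CYP735A2 (0.0683 to 0.0827). With the filter at 5 FPKM, LOG1 and CYP735A2 had no value, and LOG7 and LOG8 passed (limma adjusted p 0.0157 and 0.00909). Without estradiol 1 and 3 together, log2 fold changes were -0.65 for LOG1, -0.18 for LOG7, -0.26 for LOG8 and -0.17 for CYP735A2. The isopentenyltransferases IPT3, IPT9 and IPT5 did not pass (-0.11, -0.13 and -0.10, limma adjusted p 0.146, 0.0572 and 0.33). IPT9 passed under quantile normalization (adjusted p 0.0229), median-of-ratios scaling (0.0192) and eBayes without trend (0.046), and IPT5 without estradiol 1 (-0.18, adjusted p 0.0437).

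In breakdown and conjugation, 2 of 4 tested genes rose and 1 fell, beside 23.3% and 12.9% of all tested genes, and 1 of the rises, UGT85A1, lost its call in 9 of 15 alternatives. The cytokinin oxidase gene CKX4 rose by 0.40 (1.85, 2.01 and 1.84 FPKM with estradiol against 1.18, 1.16 and 1.23 FPKM in mock, limma adjusted p 0.00134). UGT76C2, which attaches glucose to cytokinin, fell by 0.22 (limma adjusted p 0.0026), and UGT76C1 did not pass (-0.05, limma adjusted p 0.516). UGT85A1 passed at 0.42 (limma adjusted p 0.0481) with 31.17 FPKM in estradiol 2 above 20.47 and 22.94 FPKM in the others, and lost the threshold in 5 of 6 fits without 1 library, all but that without estradiol 1 (adjusted p 0.0585 to 0.161; log2 fold change 0.25 without estradiol 2), and under both scalings (0.0808 and 0.0777). The transporter genes PUP14 and ENT3 rose by 0.16 and 0.28 (limma adjusted p 0.0139 and 0.00549; 0.0532 for PUP14 with median-of-ratios scaling), and ABCG14, which exports cytokinin from the root, did not pass (-0.03, limma adjusted p 0.662).

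**Figure D4:**
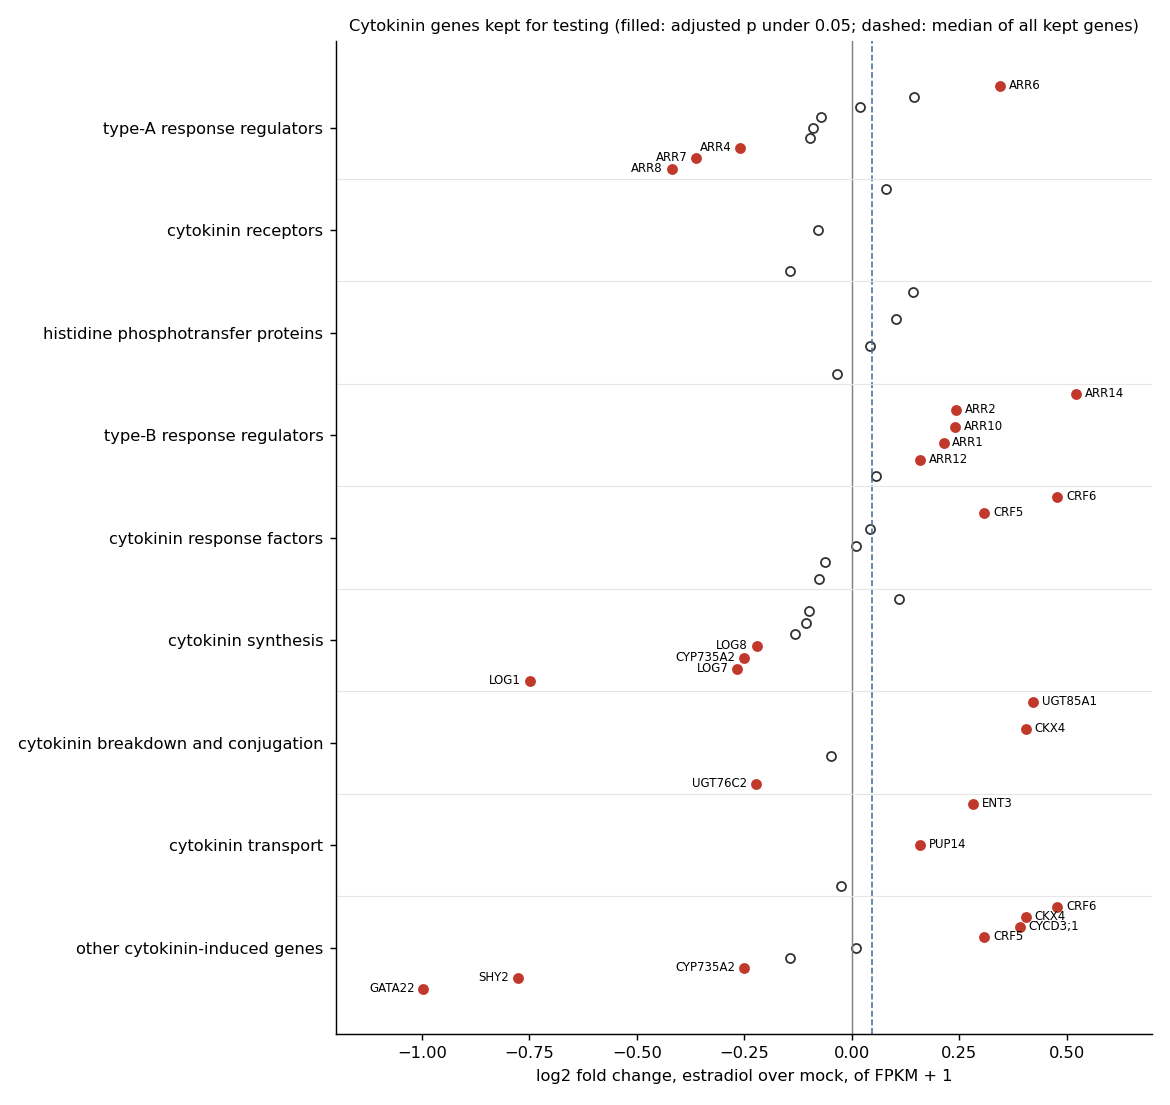
Log2 fold change of FPKM + 1, estradiol over mock (x axis), of the tested cytokinin genes by list; filled, named points passed an adjusted p of 0.05, and 6 genes appear under a second list. The type-B regulators lie right of 0, with 5 of 6 filled, the synthesis genes mostly left of it, with 4 of 8 filled, and the type-A family has 3 filled points to the left and 1 to the right.

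In the stomatal lineage, SPCH, the factor that starts the lineage, and the peptide genes CLE9 and CLE10 are known to be linked to cytokinin response. SPCH did not pass (0.21, limma adjusted p 0.115), except without estradiol 1 (0.29, adjusted p 0.0347). CLE9 had 8.98, 10.11 and 8.87 FPKM in the estradiol libraries, against 2.59, 2.41 and 2.38 FPKM in the mock libraries, a log2 fold change of 1.58 (SE 0.0592, limma adjusted p 3.69e-06). CLE10 rose by 0.55 (SE 0.0739, limma adjusted p 0.00103).

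The split of all calls depended on the scaling, and the 4 calls of the family named above did not. Higher genes were 64.3% of all calls as deposited, 46.9% with size factors by median of ratios and 52.8% when quantiles were equalised. Under these scalings the falls of ARR8, ARR7 and ARR4 were -0.45, -0.41 and -0.26 by quantile and -0.47, -0.42 and -0.31 by median-of-ratios values, and the rise of ARR6 was 0.29 under each. All 4 passed the threshold under each of 15 alternatives, with adjusted p of at most 0.0479.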

How the data were processed

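RNA of 6 libraries, 3 estradiol and 3 mock, was measured as FPKM, normalized values that the authors deposited as 1 table. The submitters' processing notes name TopHat2 2.0.13, DESeq2 and build TAIR10; the program that made the FPKM, its annotation and its scaling are not given in the sources used here. Groups came from the sample titles. A further numeric column (1), whose heading names no sample, was not used. The labels do not say that libraries came from separate cultures, so p-values measure only the spread between these libraries.

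Rows were paired with loci by symbol or synonym through RefSeq (TAIR10.1), which held 97.6% of the row names. Of the 98 listed loci, 92 were paired; AHP2, LOG2, CKX5, CKX6, CKX7 and LHCB2.1 were not and are not analysed here. Genes with at least 1 FPKM in at least 3 libraries (19134) entered limma 3.58.1 (R 4.3.3) on the log2(FPKM + 1) scale (eBayes with trend, group as the only term, two-sided, Benjamini-Hochberg over all tested genes, threshold 0.05). Single values were tested with exact permutation tests in scipy 1.17.1. The members and lists were chosen with earlier results of these data known. Named genes were the 10 members, MUTE, list genes past the threshold and up to 3 more per list by mean FPKM, and the 3 genes nearest to ARR16; AHK2 to AHK4 and ASL9 complete their lists. AT5G62910 and the markers RHD6, PRP3 and RBCS2B were named after their values were seen.

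Step ratios of low values between libraries (0.1 to 3 FPKM) gave relative depth. In 2 of 15 library pairs the pair's own ratio was off, so these depths are rough. Read totals per library are not used here, and no counting intervals are given. Coding sequences were aligned globally with Biopython 1.88. Alternatives were another pseudocount (0.1), no filter, a filter at 5 FPKM, both scalings, eBayes without trend, a replicate block, leaving out each library and, chosen after seeing the data, library weights and leaving out estradiol 1 and 3 together.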

Additional observations from a re-analysis of the deposited data

How the results depend on the processing

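The 4 calls in the family, 3 lower and 1 higher, held under all 15 alternatives, and the family count ran from 4 to 5. ARR9 was the added call, with median-of-ratios size factors (-0.144). Genes that passed no threshold changed sign as follows. ARR5 was at -0.029 with quantiles equalised and -0.03 by median of ratios, and ran from -0.028 to 0.079 without 1 library. ARR15 ran from -0.177 to 0.017 without 1 library and was at 0.143 without estradiol 1 and 3 together. Under quantile and median-of-ratios scaling, AHP3 was at -0.006 and -0.011, CRF2 at -0.04 and -0.041 and CRF3 at -0.013 and -0.007. Without estradiol 1 and 3, CRF3 was at -0.024 and CRF4 at 0.071. Without 1 library, AHP1 ran from -0.077 to 0.039, ARR11 from -0.004 to 0.097, CRF2 from -0.019 to 0.063, CRF3 from -0.02 to 0.108 and ABCG14 from -0.06 to 0.009. The cause was not tested.

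Leaving out estradiol 1 and 3, the libraries of lowest estimated depth, leaves 1 estradiol library, assumed to vary like mock. It gave 3230 genes past the threshold in place of 6928, 11 pathway genes in place of 19, 3 of them lower in place of 7, and 1 type-B gene in place of 5, with ARR1, ARR2, ARR10 and ARR12 at adjusted p of 0.179, 0.0785, 0.075 and 0.119. With less data, fewer calls are built into this setting. Without 1 library the count of all calls ran from 5337 to 5794.

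The labels do not say whether same-numbered libraries were paired. Their deviations from the group means had correlations of -0.00638, 0.0474 and -0.00197 for numbers 1, 2 and 3. Such values show no shared deviation but cannot show how the libraries were grown or prepared. A fit with replicate as a block called 6038 genes, among them the same 4 members (ARR4 -0.26, ARR6 0.34, ARR7 -0.36, ARR8 -0.42). The low levels of ARR15, ARR16 and ARR17 and the 3 libraries per group limit what could be detected. The filter at 5 FPKM gave no value for ARR3, ARR15 and ARR16.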
